A study of Mus musculus with 14 samples.

Results

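Transcripts of lymphocytes and of the antibody genes were followed through 14 RNA sequencing libraries of mouse brainstem. The group consists of 8 genes out of 55422 entries in the count table. They are the kappa light chain variable segments Igkv6-23 and Igkv19-93, the constant region genes Igkc, Ighm and Igha, the antibody-joining gene Jchain, the plasma cell gene Mzb1 and Pdcd1, the gene of an inhibitory receptor of T cells. They were picked by symbol, with the difference between tau and EYFP precipitates already known. Their values in that comparison are therefore given as a description, without a test. Of the 8, 7 passed the filter on low counts in each comparison, and Mzb1 did not.

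The animals were 7 mice, 2 to 3 months old when infused, on a C57Bl/6 background. All of them, controls included, carried a Th-cre transgene and the Slc6a2-eGFP/Rpl10a transgene. The noradrenaline transporter gene Slc6a2 thus drives a ribosomal protein fused to green fluorescent protein, so that ribosomes of noradrenergic neurons can be precipitated. In 4 animals (B, C, L and M) P364S mutant human tau was infused into the locus coeruleus, and in 3 (H, I and K) the fluorescent protein EYFP was infused. From each animal came 1 precipitate (IP) and 1 total brainstem homogenate (pre-IP), which gave 4 tau IP, 3 EYFP IP, 4 tau pre-IP and 3 EYFP pre-IP libraries. Animals B, L and I are labelled male and C, M, H and K female.

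An antibody is built from heavy and light chains, and each chain joins a variable (V) segment, chosen from many in the genome, to a constant region. A B cell that has made its choice keeps it, and its descendants carry the same V segments, so the V segments in a tissue sample give a view of the clones that supply its antibody RNA. Plasma cells, the antibody-secreting descendants of B cells, hold very large amounts of this RNA, and Jchain links the antibodies of the IgM and IgA classes that they secrete. Brain tissue normally holds few such cells, and they lie mainly in the meninges, the choroid plexus and the blood. Pdcd1 encodes PD-1, an inhibitory receptor of activated T cells.

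The V exons carry the comparison between the members, since reads can be assigned only where segments differ. Igkv6-23 (ENSMUSG00000095630.2) lies on the minus strand of chromosome 6, and its V exon spans chr6:70260409-70260706 (GRCm38, GENCODE M21). Its exon is 298 bases long. Among 37 other kappa V exons of that length, the nearest were Igkv6-13, which differs at 12 bases, and Igkv6-15, which differs at 16. Igkv6-25, whose V exon spans chr6:70215660-70215957 on the plus strand, had the highest counts of all kappa V segments, and it differs from Igkv6-23 at 19 bases, an identity of 93.6%. The longest stretch that both share without a difference is 97 bases. Both exons follow, 5′ to 3′, with the differing bases in capitals.
Igkv6-23: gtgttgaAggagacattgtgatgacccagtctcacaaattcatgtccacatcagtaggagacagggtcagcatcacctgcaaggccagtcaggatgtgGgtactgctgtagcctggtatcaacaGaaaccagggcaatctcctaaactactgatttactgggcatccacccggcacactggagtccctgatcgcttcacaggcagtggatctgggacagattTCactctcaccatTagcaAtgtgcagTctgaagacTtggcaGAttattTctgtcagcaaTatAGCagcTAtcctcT
Igkv6-25: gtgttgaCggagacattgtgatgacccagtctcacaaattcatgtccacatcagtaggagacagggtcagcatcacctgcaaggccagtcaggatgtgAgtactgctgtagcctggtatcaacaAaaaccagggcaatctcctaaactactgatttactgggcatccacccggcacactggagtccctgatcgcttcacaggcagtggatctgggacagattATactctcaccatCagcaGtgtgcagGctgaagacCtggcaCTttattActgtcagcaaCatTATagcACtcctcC

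The differences cluster at the 3′ end, where the third complementarity-determining region begins. How reads that match several segments were counted is not given in the sources used here, so the split of counts between Igkv6-23 and its relatives is uncertain. Igkv6-13, the nearest relative, had at most 58 counts in any library, and Igkv6-23 had up to 448. For Igkv19-93 (ENSMUSG00000098814.2) the nearest of the 37 kappa V exons of equal length, Igkv10-94, differs at 65 of 298 bases, and the longest shared stretch is 19 bases.

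The ends of the V exons of the members and of the kappa segments with the most counts show how far the germline sequences part in the region that contacts antigen. Each runs from the last in-frame cysteine codon, in capitals, to the end of the exon, as far as the germline V segment reaches.
Igkv6-23: TGTcagcaatatagcagctatcctct
Igkv19-93: TGTctacagtatgataatcttctacc
Igkv6-25: TGTcagcaacattatagcactcctcc
Igkv5-39: TGTcaaaatggtcacagctttcctcc
Igkv12-41: TGTcaacatttttggagtactcctcc
Igkv14-126: TGTctacagcatggtgagagccctcc

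Total counts ran from 41843489 to 65664551 per library, so that 3 counts, the limit that a count of 0 allows, came to 0.0457 to 0.0717 CPM, a scale that sets each library's total to 1e+06. These limits and all intervals cover counting error only. The human tau construct was counted 6943 to 47177 times in the tau IP libraries and 16 to 398 times in the EYFP IP libraries, and Dbh, which makes noradrenaline, reached 128 to 1292 CPM in tau IP and 29.2 to 56.1 CPM in EYFP IP. The summed level of 10 noradrenergic genes was 794 to 5890 CPM in tau IP and 374 to 447 CPM in EYFP IP, so the precipitates of the 2 treatments differed in composition. RNA concentration was 0.1 to 0.8 ng/µl in tau IP and 0.7 to 2.8 ng/µl in EYFP IP, and the EYFP IP library of animal I had the lowest RNA integrity number, 4.2. In tau IP 20813 to 24179 genes were detected, fewest in animal B, and in EYFP IP 23632 to 25885. The part of these differences in the results below was not tested. In bulk samples, fewer cells of a type and less RNA per cell cannot be told apart.

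The variable segment Igkv6-23 was low in all 4 tau precipitates and high in all 3 EYFP precipitates. Its counts were 10, 6, 14 and 10 in tau IP of animals B, C, L and M and 80, 448 and 304 in EYFP IP of H, I and K. On the CPM scale this was 0.193 ± 0.0615 (SD, n = 4) against 5.17 ± 4.03 (SD, n = 3), and the highest tau library lay below the lowest EYFP library. The log2 fold change was −4.61 (SE 0.67), and it ran from −5.11 to −3.92 when any animal was left out. Since the gene was chosen on this difference and its groups lay apart, the sign could hardly turn. Within the animals with library numbers up to 11, the difference of mean log2 CPM was −4.16 (2 tau and 2 EYFP libraries), and within those numbered 17 and above it was −4.23 (2 tau and 1 EYFP), beside −4.10 over all.

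Of the 8 genes, Igkv6-23 and Pdcd1 had no overlap between tau IP and EYFP IP, both with tau lower. No member lay without overlap above EYFP IP. Over the 19472 genes tested, 9.22% had no overlap with tau lower and 6.36% with tau higher, and since the genes were chosen on this comparison nothing can be read from that count. No gene at all passed an adjusted p of 0.05 there by the quasi-likelihood test of edgeR (0%), while 2336 had an unadjusted p below 0.05 and DESeq2 called 411.

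Igkv19-93 followed a different pattern. It was counted 58 times in the tau IP of animal B and 0 times in those of C, L and M, and 372, 38 and 104 times in the EYFP IP of H, I and K. The groups overlapped through animal B, whose 1.03 CPM was above the 0.786 CPM of animal I. The means were 0.258 ± 0.516 CPM (SD, n = 4) and 2.72 ± 2.59 CPM (SD, n = 3). The log2 fold change was −3.14 (SE 1.56), and it was −2.07 without animal H and −5.48 with the sex label as covariate. Without animal B every tau IP library is at 0, and the fitted value, −10.17, then depends on the prior count. The difference of mean log2 CPM was −4.47 over all animals, −3.35 within the lower range of library numbers and −5.49 within the higher.

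**Figure D1:**
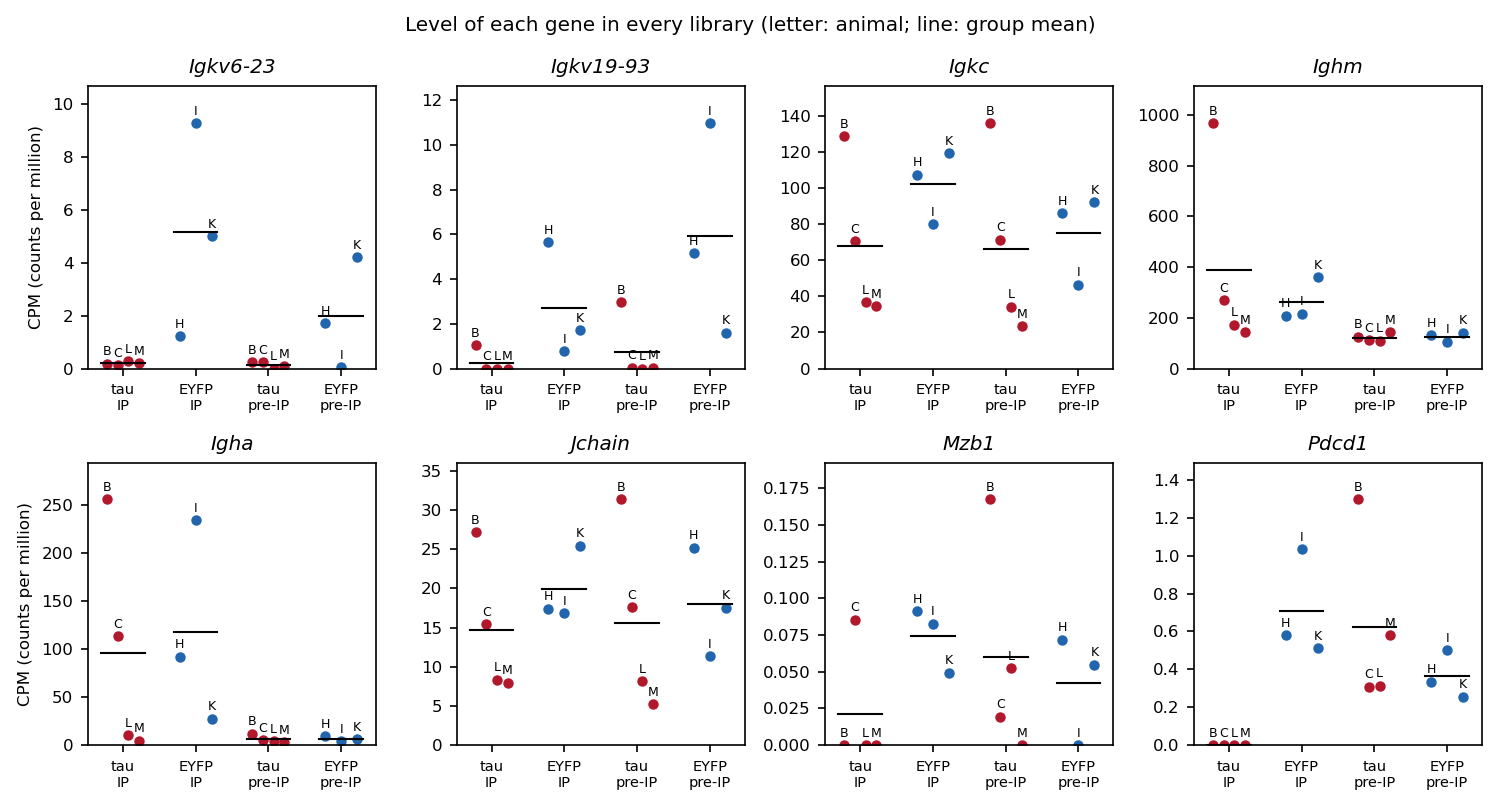
CPM (vertical axes, linear, each gene with its own scale) of the 8 genes in each library, by group, with tau libraries in red, EYFP libraries in blue, the animal letter at each point and a line at the group mean. Igkv6-23 and Pdcd1 show tau IP libraries entirely below EYFP IP libraries, and animal B carries the highest Ighm value, 968 CPM.

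Pdcd1, the gene of the receptor PD-1 (ENSMUSG00000026285.7, chromosome 1, 94038305 to 94052553, GRCm38), was counted 0 times in each of the 4 tau precipitates. It was counted 38, 50 and 31 times in the EYFP precipitates of H, I and K, which is 0.708 ± 0.285 CPM (SD, n = 3). Set against 3 counts in the tau library with the highest such limit, the EYFP mean was 11.05-fold higher, leaving out the error of that mean. Genes with 0 counts in every tau IP library made up 0.0205% of those tested, 4 of 19472. Such genes pass the filter only through their EYFP IP counts, and Pdcd1 was chosen on these precipitates. Nothing can therefore be read from that share. The homogenates of the same tau animals did hold the transcript, at 62, 16, 18 and 36 counts in B, C, L and M, and those of H, I and K held 14, 25 and 14. With 3 counts as the limit for each precipitate, Pdcd1 in the own homogenate was 24.3-fold above that limit in animal B. It was 4.80-fold above in C, 5.29-fold in L and 10.1-fold in M. These ratios leave out the error of the homogenate counts, and the limit would be higher if read mates were counted singly. In the EYFP animals Pdcd1 was higher in IP, by 0.67, 0.99 and 0.90 on the log2 scale in H, I and K. Genes lower in every tau animal and higher in every EYFP animal made up 0.781% of 20495. Nothing can be read from this share either, since it rests on the precipitates that chose the gene.

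Other genes of T cells differed widely in their counts. Trac, the constant region of the T cell receptor alpha chain, was counted 276 to 583 times in any library, the kinase gene Lck 108 to 320 times and the beta chain gene Trbc2 35 to 214 times. Trac was at 9.55 ± 1.69 CPM (SD, n = 4) in tau IP and 6.52 ± 0.784 CPM (SD, n = 3) in EYFP IP. Cd8a was counted 0 to 20 times and Cd3d 0 to 12 times in any library, and Cd3e, a subunit of the T cell receptor complex, 14 to 75 times. Of the 24 genes of T cell receptor and signalling, 15 were tested between tau IP and EYFP IP and 0 were called by edgeR or DESeq2 (2, Skap1 and Trac, at an unadjusted p below 0.05 in edgeR), with 6 positive and 9 negative and a median log2 fold change of −0.34 against −0.08 over all genes. A ligand of PD-1, Cd274, had 3.68 ± 0.816 CPM (SD, n = 4) in tau IP and 4.02 ± 1.90 CPM (SD, n = 3) in EYFP IP, which differ by less than their spread. Another ligand, Pdcd1lg2, was counted 0 to 8 times in any library. Of the other checkpoint genes, Tigit was counted 0 to 2 times in any library and Ctla4 0 to 16 times. Of the 12 checkpoint genes, 8 were tested in IP and 0 were called by edgeR or DESeq2, with 0 at an unadjusted p below 0.05.

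Mzb1, a chaperone of antibody assembly in B and plasma cells, was at the detection limit throughout. It was counted 0, 4, 0 and 0 times in tau IP and 6, 4 and 3 times in EYFP IP. In the homogenates it was counted 8, 1, 3 and 0 times for tau and 3, 0 and 3 times for EYFP. A protein-coding gene, SPATA24, overlaps Mzb1 on the same strand, and the part of this overlap in the low counts was not tested. No difference was detectable at these counts.

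The constant regions were the abundant members, and they did not separate the treatments. Igkc, the constant region of kappa light chains (ENSMUSG00000076609.2, chromosome 6, 70726435 to 70726966), was counted 7237, 3305, 1867 and 1800 times in tau IP of B, C, L and M and 7050, 3874 and 7243 times in EYFP IP of H, I and K. A long non-coding RNA gene, Gm30211, overlaps it on the same strand. The group means were 67.7 ± 44.0 CPM (SD, n = 4) and 102 ± 20.04 CPM (SD, n = 3), with animal B as high as the EYFP animals and L and M lowest. Without animal B the log2 fold change moved from −0.45 to −1.04.

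Ighm, the constant region of IgM heavy chains (ENSMUSG00000076617.9, chromosome 12, 113418558 to 113422730), was dominated by animal B. It was counted 54410, 12551, 8789 and 7518 times in tau IP and 13648, 10415 and 21871 times in EYFP IP. The log2 fold change of tau over EYFP was 0.74 (SE 0.65) and turned to −0.36 without animal B. Igha, the constant region of IgA heavy chains (ENSMUSG00000095079.6, chromosome 12, 113254830 to 113260236), was counted 14387, 5316, 514 and 237 times in tau IP and 6040, 11334 and 1662 times in EYFP IP. The precipitates thus ranged 56.5-fold in Igha CPM from the lowest to the highest, with L and M lowest and B and I highest. Jchain (ENSMUSG00000067149.6, chromosome 5, 88519809 to 88527891) was counted 1525, 722, 424 and 416 times in tau IP and 1142, 813 and 1547 times in EYFP IP, with a log2 fold change of −0.29 (SE 0.45). For these 4 genes the tau and EYFP precipitates overlapped. Within the lower range of library numbers the difference of mean log2 CPM in IP was 0.04 for Igkc, 1.27 for Ighm, 0.22 for Igha and 0.26 for Jchain, and within the higher range it was −1.74, −1.19, −2.01 and −1.64, so that the sign did not hold in both ranges for any of them.

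Tau and EYFP were tested in the homogenates, whose libraries did not enter the choice of the genes. They come from the same 7 animals, though, and the kappa V segments of an animal recur in both its libraries (below), so the p-values of Igkv6-23 and Igkv19-93 there are not independent of that choice. No member passed an adjusted p of 0.05 by the quasi-likelihood test of edgeR, and neither did any of the 19197 genes tested (0%), of which 545 had an unadjusted p below 0.05, and DESeq2 also called 0. In 0 of the 8 members did the tau and EYFP homogenates lie apart without overlap, against 1.78% of all genes with tau lower and 1.33% with tau higher. Igkv6-23 was counted 12, 12, 0 and 6 times in the tau homogenates of B, C, L and M and 72, 2 and 230 times in the EYFP homogenates of H, I and K. It was low in animal I, whose 2 counts lay within the range of the tau homogenates. The log2 fold change was −3.82 (SE 1.02), with tau lower in the edgeR fit at an unadjusted p of 0.00293 and an adjusted p of 1.00. Igkv19-93 was counted 142, 2, 0 and 2 times in tau and 216, 548 and 88 times in EYFP homogenates, and again animal B made the groups overlap. Its log2 fold change was −2.99 (SE 1.17), at an unadjusted p of 0.0257 and an adjusted p of 1.00 in edgeR.

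Within the lower range of library numbers the difference of mean log2 CPM in the homogenates was −0.42 for Igkv6-23, and within the higher range it was −5.98, beside −2.62 over all, and the higher range sets animal K against L and M. For Igkv19-93 these were −3.98 and −5.12, beside −4.91 over all.

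Both results depended on the filter. With no filter on low counts, edgeR gave adjusted p = 5.62e-06 for Igkv6-23 and 0.000509 for Igkv19-93, among 44 of 32286 genes called. Over all settings tried, the adjusted p ran from 5.62e-06 to 1 for Igkv6-23 and from 0.000509 to 1 for Igkv19-93, and without animal B that of Igkv19-93 was 0.0124 with a log2 fold change of −7.82. These values carry the same dependence on the choice of the genes.

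The other members were close in the homogenates. The log2 fold changes of tau over EYFP were −0.17 (SE 0.47) for Igkc, −0.02 (SE 0.15) for Ighm, −0.04 (SE 0.40) for Igha and −0.19 (SE 0.47) for Jchain. Pdcd1 was at 0.79 (SE 0.55), the opposite sign to its difference in the precipitates, and fell to 0.17 without animal B. All of these had an adjusted p of 1.00 in edgeR.

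Set against the homogenates, most heavy chain genes took a larger share of the counts in the precipitates, with Ighd as an exception. Kappa chain genes took about the same share. These are shares of each library and not amounts of RNA. Igha was higher in IP than in the own homogenate in 7 of 7 animals, by 0.54 (animal M) to 5.80 (animal I) on the log2 scale, and the fitted log2 fold change was 4.18 (SE 0.76). In the homogenates it was counted 570, 275, 234 and 193 times for tau and 380, 208 and 321 times for EYFP. Ighm was also higher in 7 of 7 animals, by 0.02 (M) to 2.95 (B), with a fitted value of 1.49 (SE 0.38) that fell to 0.89 without animal B. Over the 20495 genes tested, 10.1% were higher in IP in 7 of 7 animals. Igkc, at 0.29 (SE 0.37), was higher in 5 of 7 animals, and Jchain, at 0.10 (SE 0.36), in 4 of 7. The members share their precipitates with the comparison that chose them, so these values have no test.

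Heavy chain genes outside the members could be tested. Of the 4 IgG constant regions, 3 were called higher in IP by edgeR: Ighg3 by 3.48 (SE 0.70, adjusted p = 0.00167), Ighg2b by 2.63 (SE 0.66, adjusted p = 0.00736) and Ighg2c by 2.00 (SE 0.43, adjusted p = 0.00253), each higher in 7 of 7 animals. Over the alternatives run, these adjusted p ranged from 7.42e-06 to 0.0477 for Ighg3, from 7.42e-06 to 0.0881 for Ighg2b and from 3.28e-05 to 0.0443 for Ighg2c. The highest value for Ighg2b came from the tau animals alone. Ighg1 was higher in 6 of 7 animals and was not called. Ighd, the constant region of IgD heavy chains, was counted 0 to 54 times in the precipitates and 27 to 56 times in the homogenates. It was lower in IP in 5 of 7 animals, from −4.59 in B to 0.35 in K on the log2 scale, and was not called. Over all genes, 14.5% were called higher in IP and 13.6% lower.

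Of 113 heavy V segments outside the members, 35 passed the filter over all libraries, and 24 of these were called higher in IP and 0 lower. Among the precipitates alone 33 passed the filter and among the homogenates alone 8, so most entered through the precipitates, where they are high, and the direction of that count is partly set by the filter. The summed counts below need no filter. Ighv1-72, the heavy V segment with the most counts, was counted 8 to 2285 times in the 7 precipitates and 2 to 42 times in the 7 homogenates, higher in 7 of 7 animals by 5.29 (SE 1.03) in the fit, with an adjusted p of 0.00136 in edgeR. Ighv1-82 rose by 4.57 (SE 0.78), Ighv1-74 by 3.43 (SE 0.63) and Ighv1-26 by 2.16 (SE 0.64), with adjusted p in edgeR of 0.000549, 0.000933 and 0.0182. Ighv1-9, at 0.80 (SE 0.59), was not called, with an adjusted p of 0.345 in edgeR. These named segments were picked by counts summed over all libraries, and most heavy V counts came from the precipitates. Their direction and p are therefore partly set by the pick. The number called fell to 13 without animal C and to 15 without animal I.

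Kappa V segments stood otherwise. Of 29 tested besides the members, 0 were called by edgeR, with 0 at an unadjusted p below 0.05 and also 0 by DESeq2. Of the 29, 16 were positive and 13 negative, with a median log2 fold change of 0.04. This fit does not pair the libraries of an animal. With the animal as a block 1 was called, Igkv5-39, at 0.59 (edgeR adjusted p = 0.00768, against 0.374 without the block). Igkv6-25, the most counted kappa segment, had 7.58 ± 8.81 CPM (SD, n = 7) in IP and 7.29 ± 7.98 CPM (SD, n = 7) in the homogenates.

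The loci were set side by side animal by animal on summed counts over every segment, as a description. The sum of 113 heavy V segments was higher in IP in every animal, by 2.12 to 4.23 on the log2 scale, and that of 98 kappa V segments without the members by −0.30 to 0.90. The heavy V difference exceeded the kappa V difference in 7 of 7 animals, by 1.77 to 3.76 and on average by 2.61 ± 0.76 (SD, n = 7). The IgG constant regions, summed, were higher by 1.49 to 3.16. Whether the heavy and kappa chain RNA here came from the same cells was not tested, nor was what sets their levels apart.

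**Figure D2:**
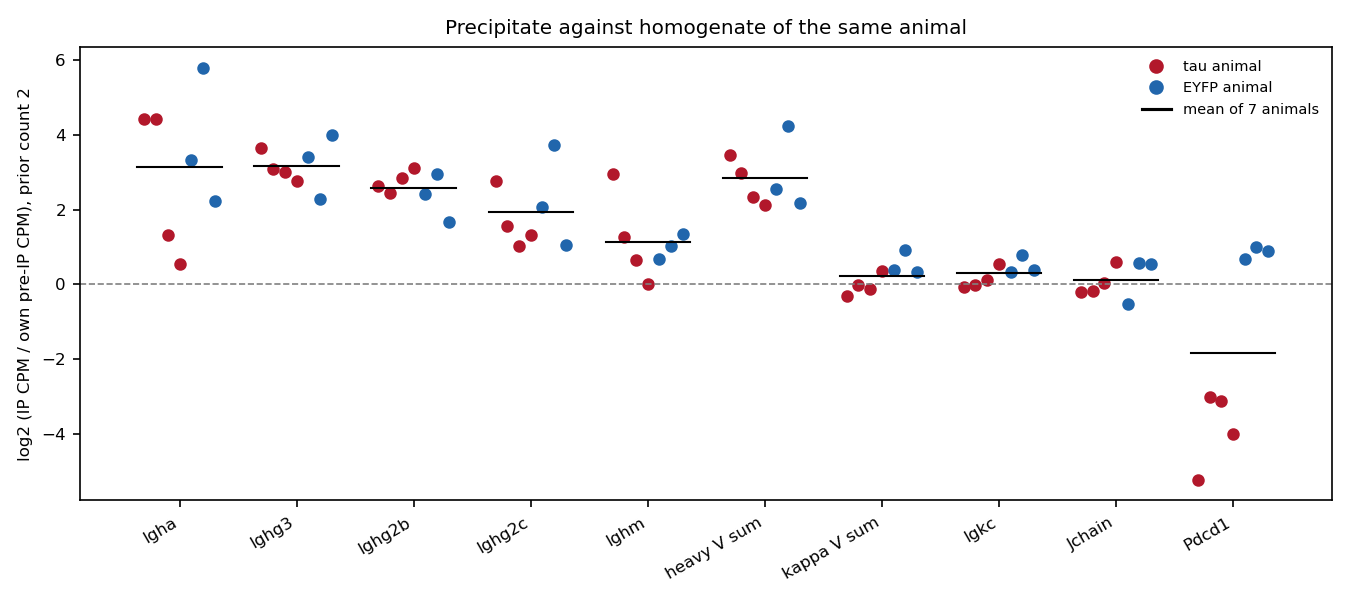
Log2 ratio of CPM in the precipitate to CPM in the homogenate of the same animal (vertical axis, prior count of 2), for 6 constant region genes, for the summed heavy and kappa V segments without the members, for Jchain and for Pdcd1, with 1 point per animal and a line at the mean of the 7. The heavy chain genes plotted, Igha, Ighg3, Ighg2b, Ighg2c, Ighm and the heavy V sum, lie above 0 in all 7 animals, kappa V, Igkc and Jchain lie on both sides of 0, and Pdcd1 lies below 0 in the 4 tau animals and above it in the 3 EYFP animals.

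Levels were compared between genes per kilobase of the gene model. Among the constant regions and Jchain, the order of the mean levels in the homogenates was Igkc, Ighm, Jchain and Igha. Igkc stood at 125 ± 95.6 CPM per kilobase (SD, n = 4) in tau and 141 ± 46.8 (SD, n = 3) in EYFP homogenates, and Ighm at 64.8 ± 7.96 and 66.7 ± 9.64. In the tau homogenates these 2 differed by less than the spread of Igkc, and in animal M Ighm was the higher, at 75.4 against 44.1 CPM per kilobase. Jchain followed at 6.19 ± 4.68 and 7.16 ± 2.76 CPM per kilobase, and Igha at 2.29 ± 1.49 and 2.39 ± 0.935. In the tau precipitates Ighm was at 206 ± 207 CPM per kilobase and Igkc at 127 ± 82.7, which differ by less than their spread. In the EYFP precipitates Ighm was at 138 ± 45.5 and Igkc at 192 ± 37.7, with Igkc the higher in 3 of 3 libraries. Igha, at 36.01 ± 44.2 in tau IP and 44.2 ± 39.7 CPM per kilobase in EYFP IP, stood above Jchain there, at 5.85 ± 3.56 and 7.91 ± 1.92, on average, though the spread of Igha was as large as its mean.

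Which kappa V segments were present varied from animal to animal. Igkv6-25 made up 50.8% of the kappa V counts in the homogenate of animal K (95% Wilson interval 48.8 to 52.7%) and 38.8% in that of M (35.4 to 42.4%), but 3.46% in that of L (2.49 to 4.77%). Igkv12-41 took 22.1% in the homogenate of M (19.2 to 25.2%) and 1.19% in that of C (0.773 to 1.83%). Summed over the 14 libraries, Igkv19-93 ranked 4 and Igkv6-23 ranked 6 among the 100 kappa V segments. Between 14 and 33 kappa V segments reached 3 counts in a library.

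**Figure D3:**
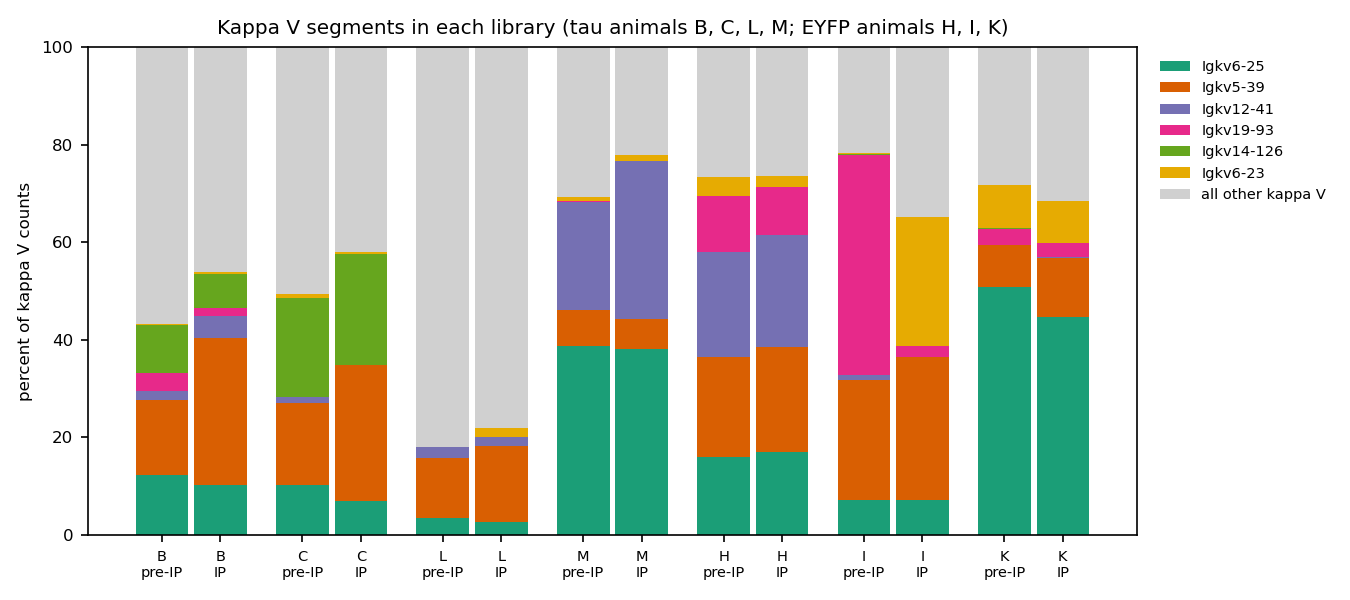
Percent of the kappa V counts of each library (vertical axis) that fell on the 6 segments with the most counts and on all others (grey), with the homogenate and the precipitate of each animal side by side. Among the differences between the paired bars, Igkv5-39 fills 15.4% of the homogenate and 30.2% of the precipitate bar of animal B, and in animal I Igkv19-93 fills 45.0% of the homogenate bar and Igkv6-23 fills 26.4% of the precipitate bar.

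The same kappa V segments recurred in the 2 libraries of an animal. The share of the composition that a precipitate and a homogenate held in common, summed over 100 segments, was highest for the own homogenate in 7 of 7 precipitates, with a median of 81.5% (49.7 to 93.0%) against 33.4% (16.5 to 52.2%) for the 42 pairs of different animals. With Igkv6-23 and Igkv19-93 left out, the own pairs shared 71.5 to 95.1% and were again highest in 7 of 7. Libraries of an animal share their tissue, so this is a description of these samples. In heavy V segments the own homogenate was highest in 3 of 7 precipitates, with a median of 44.8% for own pairs and 33.6% for the others. The homogenates held 198 to 1014 heavy V counts each, and the precipitates 732 to 13118, so that the homogenate shares were the less precise. The part of this in the lower heavy V overlap was not tested.

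**Figure D4:**
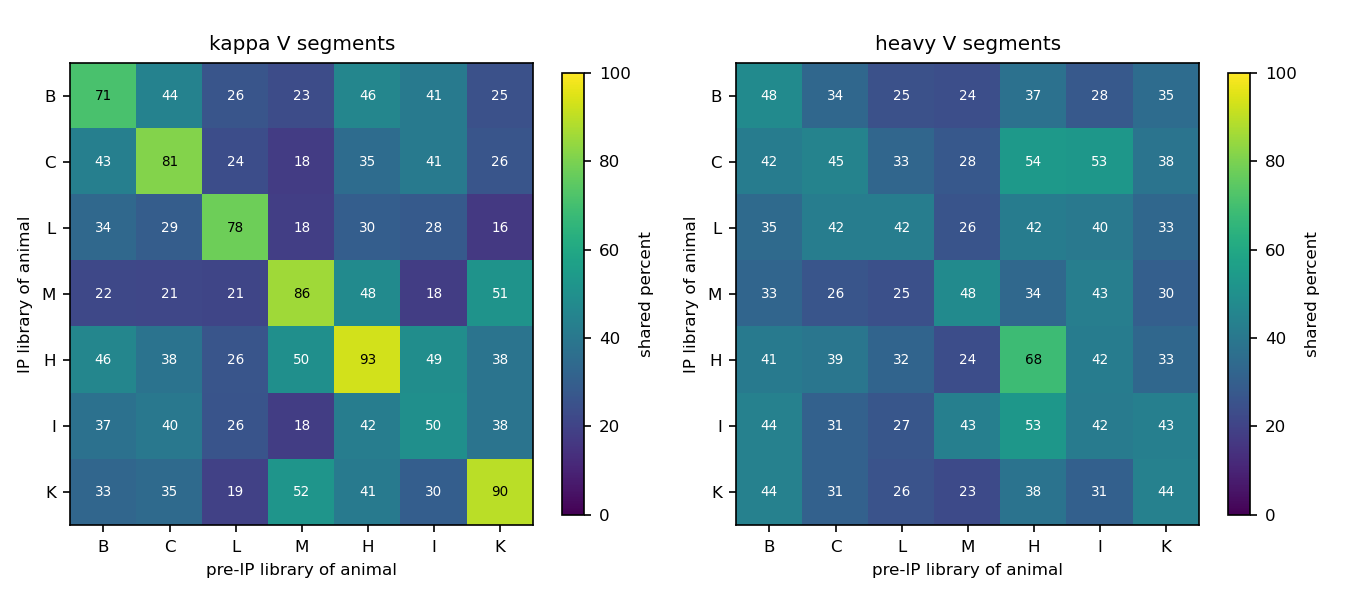
Percent of the V segment composition that the precipitate of the row's animal shares with the homogenate of the column's animal, for kappa V segments (left) and heavy V segments (right), with tau animals B, C, L and M before EYFP animals H, I and K. The diagonal, which pairs libraries of the same animal, is highest in every row for kappa V and in 3 of 7 rows for heavy V.

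Animal I set the members apart from this pattern. Its precipitate held 448 counts of Igkv6-23 and its homogenate 2, or 26.4% and 0.164% of the kappa V counts. For Igkv19-93 the order was reversed, with 38 counts in the precipitate and 548 in the homogenate, or 2.24% and 45.0%. In animal K, by contrast, Igkv6-23 took 8.50% of the kappa V counts in the precipitate and 8.87% in the homogenate, and in H 2.13% and 3.81%. The value of Igkv6-23 in the precipitate of I, which is the highest of all 14 libraries, therefore had no counterpart in the homogenate of that animal. That precipitate is also the library with the lowest RNA integrity number, and the part of this in the result was not tested.

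Across the homogenates, Igkc was compared with Jchain, Igha and Ighm on the log2 CPM scale, and it varied with Jchain and with Igha. Igkc was at 136, 71.4, 34.3 and 23.5 CPM in the tau homogenates of B, C, L and M and at 85.9, 46.4 and 92.3 CPM in the EYFP homogenates of H, I and K. Over these 7 libraries Igkc and Jchain had a Pearson r of 0.979 (exact permutation p = 0.00159, 0.00298 after Benjamini-Hochberg adjustment over 3 relations) and a Spearman rho of 0.893 (exact permutation p = 0.0123, adjusted 0.0185). Without L and M, the 2 animals farthest from the median log2 CPM of Igkc, r was 0.921. Igkc and Igha had r = 0.919 (exact permutation p = 0.00198, adjusted 0.00298) and rho = 0.964 (exact permutation p = 0.00278, adjusted 0.00833), with r = 0.888 without L and M. Igkc and Ighm had r = 0.092 (exact permutation p = 0.841, adjusted 0.841) and rho = 0.107 (exact permutation p = 0.840, adjusted 0.840), and r = 0.694 without L and M. Values in CPM share the library total as their denominator. Among the animals with library numbers up to 11, and among those numbered 17 and above, there were 4 and 3 homogenates, too few for a correlation within each range.

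Ighm was the steadiest member in the homogenates, with 1.35-fold between the lowest and the highest library and a coefficient of variation of 12.2%. Igkc ranged 5.80-fold and Jchain 5.99-fold. In the precipitates Ighm ranged 6.73-fold and Igkc 3.74-fold.

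The marker of the choroid plexus Ttr, which encodes transthyretin, was low in the same homogenates as Igkc. It was at 1595, 1255, 116 and 23.3 CPM in the tau homogenates of B, C, L and M and at 835, 763 and 1272 CPM in the EYFP homogenates of H, I and K. Animals L and M were lowest for Ttr, Igkc, Jchain and Igha, and B was highest for all 4. The summed level of the 4 choroid plexus genes was 29.4 to 1633 CPM in tau and 784 to 1316 CPM in EYFP homogenates, and 35.1 to 1165 CPM in tau IP and 1075 to 1821 CPM in EYFP IP. The part of choroid plexus tissue in the levels of the antibody genes was not tested.

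**Figure D5:**
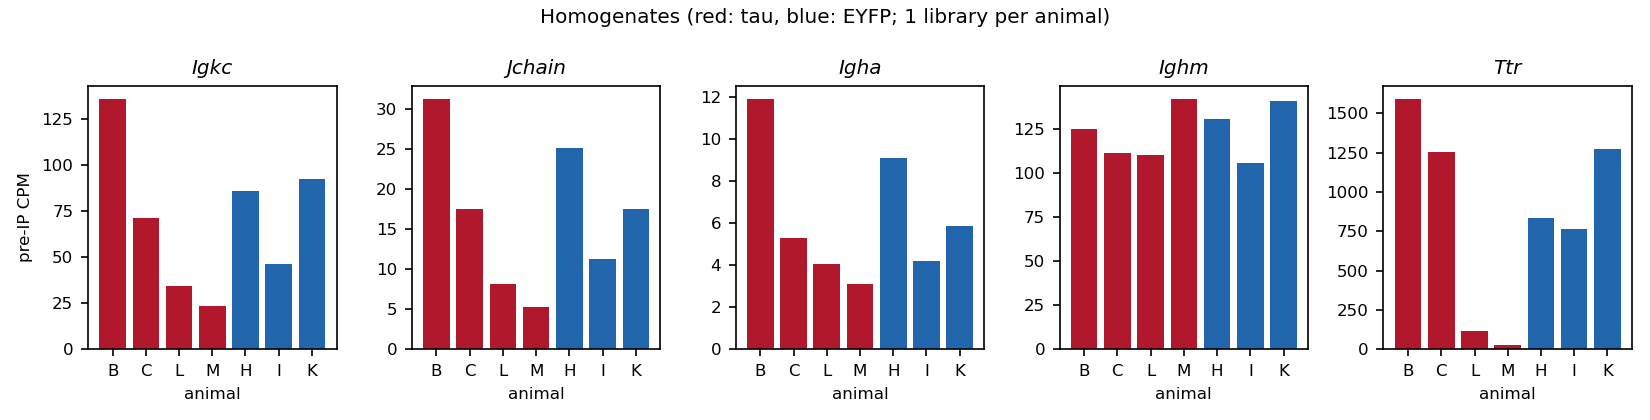
CPM in the homogenate of each animal (vertical axes, linear from 0, each gene with its own scale) for Igkc, Jchain, Igha, Ighm and the choroid plexus gene Ttr, with tau animals in red and EYFP animals in blue, 1 library per animal. L and M have the lowest bars for Igkc, Jchain, Igha and Ttr, while Ighm runs from 106 to 142 CPM.

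Ms4a1, which encodes the B cell surface protein CD20, was at or near 0, although antibody RNA was plentiful. It was counted 0 to 12 times in any library. Cd79a, a subunit of the B cell receptor, was counted 40 to 150 times in 13 libraries and 1 time in the tau IP of animal B, the library with the most Ighm. The summed level of 16 B cell surface and receptor genes was 1.80 to 13.6 CPM in tau IP, 10.4 to 14.05 in EYFP IP, 11.4 to 15.2 in tau pre-IP and 9.36 to 12.97 in EYFP pre-IP. Of the 12 tested between IP and pre-IP, 0 were called by edgeR (1 at an unadjusted p below 0.05) and 1 by DESeq2, Cd72 in both cases with lower values in IP, and the median log2 fold change was −0.31.

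Of 12 plasma cell genes, all tested, 0 were called higher in IP and 3 lower by edgeR, where 14.5% of all genes were called higher and 13.6% lower, so these counts are no result about the list. The 3 were Sdc1, the plasma cell surface proteoglycan syndecan 1, at −0.91 (SE 0.32, edgeR adjusted p = 0.0421), Cd38 at −0.66 (SE 0.22, edgeR adjusted p = 0.0339) and Tent5c at −0.66 (SE 0.20, edgeR adjusted p = 0.0209). Cells of other types also express these genes. The call of Sdc1 was lost without C, H, I, K or L, that of Cd38 without B, C, H or L, and that of Tent5c without B, C or M. Xbp1, the transcription factor of the secretory programme, was at 150 to 239 CPM in all 14 libraries. Prdm1, which drives plasma cell differentiation, was counted 0 to 43 times.

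Among the remaining lymphocyte genes, the receptor gene Cd160 was higher in IP by 2.39 (SE 0.47, edgeR adjusted p = 0.00135). It had 22 to 42 counts in every precipitate and 2 to 10 in the homogenates. Cd160 thus passed the filter through the precipitates, where it is high, so its direction is partly set by the filter. Skap1, an adaptor of T cell receptor signalling, was higher by 0.86 (SE 0.27, edgeR adjusted p = 0.0266). Of the B cell transcription factors, Pou2f2 was higher by 0.56 (SE 0.19, edgeR adjusted p = 0.0393) and Bach2 by 0.54 (SE 0.16, edgeR adjusted p = 0.0194). The last 3 calls were lost under several alternatives, and that of Cd160 was lost in the EYFP animals alone (edgeR adjusted p = 0.119). Markers of microglia were called lower in IP for 3 of 8 genes, and noradrenergic genes higher for 10 of 10, beside 13.6% of all genes lower and 14.5% higher.

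Between the treatments, 0 genes of any of the 20 lists passed the edgeR test in IP or in the homogenates. Of the 138 list genes tested in IP, 25 had an unadjusted p below 0.05 in edgeR and 8 were called by DESeq2, and of the 137 tested in the homogenates the numbers were 0 and 0. In IP the signs leaned to lower values in tau for several other cell types: all 8 microglial genes (median −0.55), all 7 genes of MHC class II (median −0.48), all 5 endothelial genes (median −0.27) and all 4 choroid plexus genes (median −1.33) were negative, against −0.08 over all genes. So were all 5 red cell genes (median −0.38), all 5 border macrophage genes (median −0.49), all 4 astrocyte genes (median −0.59) and all 4 oligodendrocyte genes (median −0.55). The 10 noradrenergic genes were all positive (median 2.83). Red cell genes, a mark of blood in the tissue, had a summed level of 597 to 832 CPM in tau IP and 607 to 1308 CPM in EYFP IP. The part of these shifts in the lower levels of Igkv6-23 and Pdcd1 was not tested.

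Genes whose log2 CPM ran most like a member over the 14 libraries were listed by Pearson r, with no p, since the libraries share animals and composition. For Igkc the 5 highest of 20488 genes were Dnajb11 (0.91), the heavy V segment Ighv5-6 (0.90), Ldc1 (0.89), the kappa segment Igkv5-39 (0.89) and Folr1 (0.88), and Jchain, as a member outside this ranking, was at 0.97. For Igkv6-23 the 4 highest were Itgav (0.88), Etfdh (0.87), Dip2c (0.87) and Synm (0.83), and none of these is an antibody gene. For Pdcd1 they were Uvrag (0.93), Hdac1 (0.92), Cd248 (0.91), Il1rl2 (0.90) and Esr2 (0.90). By Spearman correlation 2 of the 5 for Igkc, 1 for Igkv6-23 and 0 for Pdcd1 remained among the 5 most alike. Igkv6-23 and Igkv19-93 had r = 0.46 with each other.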

How the data were processed

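The authors deposited a table of read counts per gene and library, whole numbers without normalization. Per the submitters' processing notes, the tools were FastQC, Trim Galore, STAR and featureCounts with GRCm38 (mm10), and versions, strand setting and treatment of reads with several matches are not given in the sources used here. Per the labels' protocols, polyadenylated RNA was amplified with SMART-Seq v4 and tagged with Nextera XT. Of the counts from 1 to 20, 76.6% were even, so read mates may have been counted singly, and counts of a few may stand for fewer molecules. RNA concentrations and RNA integrity numbers, a quality score, come from the deposited sample sheet, per the file headers. Symbols came from the deposited gene table, whose gene ends equal GENCODE M21 for 50973 genes, and V exons from the GENCODE M21 transcripts.

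CPM is counts per library total. Tests across genes used edgeR 4.0.16 in R 4.3.3 (quasi-likelihood F test, TMM scaling, filterByExpr, Benjamini-Hochberg adjustment, threshold 0.05), with IP against pre-IP fitted over all 14 libraries with treatment as a term. Standard errors are the log2 fold change over the square root of F. Per-animal log2 ratios used a prior count of 2. The fits were tested on simulated counts. The animal letter of the labels pairs the fractions. Deviations of the 2 libraries of an animal from their group means correlated at 0.147 to 0.359. Pairs of different animals were not computed, so these values alone do not test the pairing. Alternatives were DESeq2 1.42.0, its size factors, no filter, sex or library-number range as covariate, a replicate block, each treatment alone, a prior count of 0.5, effective library sizes and leaving out each animal. The labels give 1 animal per letter, and p-values between the treatments measure the spread between these animals. The fit of IP against pre-IP without the block takes the 2 libraries of an animal as separate. Its p-values thus measure the spread between libraries and leave the pairing out.

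All 8 genes were named. From each list, genes past the threshold were eligible, up to 5 by size of change, or otherwise the 3 with the highest mean CPM, and of V segments the 5 with the most counts in each locus. Igkv6-13, Igkv6-15, Igkv10-94, Cd72, Trac and the marker genes given only as ranges of counts were named outside this rule, after their values were seen. Members and lists were chosen with earlier results of these data known. Some genes that these rules would name are not reported here.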

Additional observations from a re-analysis of the deposited data

Results flagged for a closer look

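Groups of 4 libraries, 22 of them, were examined. A library was flagged when its gap to the nearest other, as a share of the range, exceeded Dixon's 95% critical value for 4 values. Chance does this in about 1 of 20 groups of normally distributed values. Where the other 3 libraries are at 0, any count is flagged, so that rate does not hold for counts near 0. Animal B stood out 3 times: for Igkv19-93 in tau IP at 1.03 CPM, where the other 3 libraries were at 0, for Igkv19-93 in tau pre-IP at 2.97 CPM, where the others had 0 to 2 counts, and for Ighm in tau IP at 968 CPM. Animal C stood out for Mzb1 in tau IP at 0.0855 CPM, which is 4 counts.

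Pdcd1 moved in opposite directions between precipitate and homogenate in the 2 treatments. With a prior count of 2, the mean log2 difference of IP from the own homogenate was −3.85 in the 4 tau animals, lower in each, and 0.85 in the 3 EYFP animals, higher in each. The difference between the treatments was not tested, since the gene was chosen on the same precipitates, and every tau precipitate was at 0, so that the first value depends on the prior count.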

How the results depend on the processing

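Tau against EYFP in IP gave 0 calls by edgeR, but 411 with DESeq2 (390 higher, 21 lower), 113 with no filter on low counts (108 higher, 5 lower), 202 with all 14 libraries in a single fit (176 higher, 26 lower), and 0 to 128 when an animal was left out, 128 of them without animal M. In the homogenates the 0 calls became 44 with no filter, and 0 to 1 when an animal was left out. IP against pre-IP gave 5755 calls, 1218 in the EYFP animals alone, 4194 to 5877 when an animal was left out, and 6076 with the replicate block (2915 higher, 3161 lower). The heavy V segments called there numbered 24, or 4 in the tau animals alone, 8 in the EYFP animals alone and 13 to 24 when an animal was left out. The kappa V segments called numbered 0, and 1 with the replicate block. The block also ended the call of Pou2f2 (edgeR adjusted p = 0.0632), and it changed no other call named. In the homogenates Ighm turned to 0.0178 with the sex label as covariate. When an animal was left out, the homogenate values ran over both signs for Igkc (−0.794 to 0.106), Ighm (−0.134 to 0.114), Igha (−0.588 to 0.243) and Jchain (−0.788 to 0.0910). The cause of these shifts was not tested. Igkv6-23 stayed negative in IP and in the homogenates under every alternative run. In IP the gene was chosen on this difference and its groups lay apart, so the sign there could hardly turn. Low counts limit Mzb1, which had at most 8 counts in any library and overlaps another gene on its strand.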
